A study of Mus musculus with 12 samples.

Results

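Cholesterol synthesis, its control by the transcription factor SREBP2 and the handling of sterols were followed through 31 genes, taken by symbol from the 51826 genes in the count tables. The set holds 20 synthesis enzymes in pathway order, 4 genes of SREBP2 control and 7 genes of sterol transport and turnover. All 31 were among the 10477 genes that passed the filter on low counts. That filter asks for about 10 reads at the median depth in at least 2 libraries, and 28 members exceeded this in all 12 libraries. Idi1 passed only through WT asynchronous cells, Tm7sf2 through S38D asynchronous and both WT groups, and Mylip through S38A asynchronous and both WT groups.

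Animal cells build cholesterol from acetyl-CoA through mevalonate, farnesyl diphosphate, squalene and lanosterol. When membrane sterol is low, SCAP escorts SREBP2 from the endoplasmic reticulum to the Golgi, where it is cleaved into an active transcription factor that raises the enzymes of the whole pathway. INSIG proteins hold the SCAP complex back when sterol is plentiful, and the nuclear receptor LXR then raises exporters such as ABCA1 and ABCG1. Proliferating lymphocytes are known for high demand for membrane sterol.

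The study measured RNA in a mouse B cell lymphoma line whose large ribosomal subunit protein RPL12 was wild type (WT) or carried S38A or S38D. In these names the serine is replaced by alanine, which cannot be phosphorylated, or by aspartate, whose charge resembles a phosphate. There were 6 groups of 2 libraries: S38A mitotic, S38D mitotic, WT mitotic, S38A asynchronous, S38D asynchronous and WT asynchronous. The labelled cell line is 19PP, grown from an immunodeficient Rag2-/-γC-/- host given bone marrow from Cγ1-Cre; Myc/P110*flSTOP mice, and the culture protocol describes its subline 19DN, sorted after Flp had removed the GFP and hCD2 reporters. All 6 groups share this Myc and P110* background, and the harvest of each was done with cycloheximide, a blocker of translation, present at 100 µg/mL. Mitotic cells had received 100 ng/mL nocodazole, a microtubule poison, for 8 h and had then been washed and released for 10 min. How the RPL12 variants were introduced, and whether each line is 1 clone, is not given in the sources used here. Nothing in the labels says that the 2 libraries of a group came from separate cultures, so p-values measure the spread between these libraries, which may be technical.

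Libraries held 3432875 to 6587997 gene reads, and 13378 to 14331 genes had a read. Rpl12 RNA, whose 3′ reads do not show the altered codon, had 51.3 and 43.3 CPM in S38A mitotic, 48.0 and 62.2 CPM in S38D mitotic and 73.5 and 74.4 CPM in WT mitotic libraries. In asynchronous libraries it had 41.3 and 44.7 CPM in S38A, 35.8 and 28.3 CPM in S38D and 39.9 and 39.1 CPM in WT cells. All 10 B cell markers reached a mean of 1 CPM, with summed levels of 2130 to 4450 CPM, while 1 of 6 T and NK cell, 1 of 7 myeloid and 1 of 7 stromal, epithelial and endothelial markers did, at summed levels of at most 7.42 CPM. The 2 libraries of S38D asynchronous cells and the 2 of WT mitotic cells differed most from each other: the SD of the log2 difference between replicates over 5516 genes was 0.578 and 0.39 in those groups and 0.176 to 0.23 in the other 4. All counts below come from a fit over the 12 libraries with edgeR's quasi-likelihood test, and a gene is called higher or lower at a Benjamini-Hochberg adjusted p under 0.05 over all genes tested. Levels are CPM, gene counts scaled to a common library size with a TMM factor, and changes are log2 fold changes with the SE of the fit. By this test Rpl12 itself was called lower in S38A than in WT mitotic cells (-0.64 ± 0.16, adjusted p = 0.0102). In S38D mitotic cells it was not called against WT (-0.42 ± 0.16, adjusted p = 0.153). It was called higher in mitotic than in asynchronous cells of WT (0.90) and S38D (0.78), but not of S38A (0.14). In bulk RNA, fewer cells of a kind and less RNA per cell cannot be told apart.

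**Figure D1:**
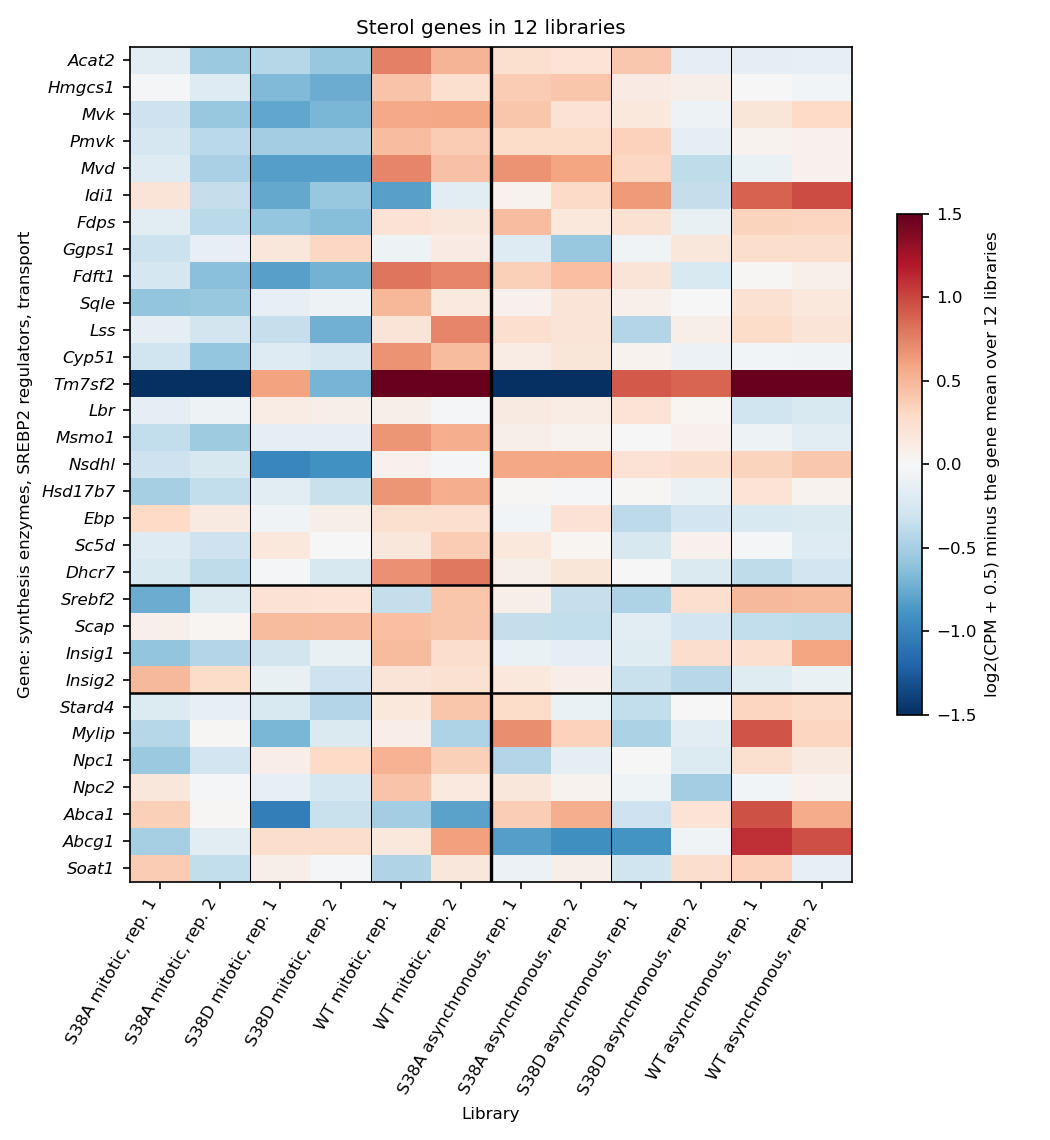
Log2 CPM of the 31 genes in each library, relative to the mean of the gene over the 12 libraries; mitotic libraries stand left of asynchronous ones, and within each state S38A and S38D stand left of WT. The colour scale saturates for Tm7sf2 in S38A, and Fdft1, Cyp51, Msmo1 and Dhcr7 are at their highest in the 2 WT mitotic columns.

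The S38A and S38D lines stand for a ribosomal protein that cannot be phosphorylated at this serine, or that mimics phosphorylation there. Variant and line coincide in these libraries, so an effect of the variant cannot be told apart from other differences between the lines. In mitotic cells, the RNAs of the cholesterol synthesis enzymes were lower in both RPL12 mutant lines than in WT. The summed level of the 20 enzymes was 4852 and 4338 CPM in S38A and 4554 and 4456 CPM in S38D mitotic libraries, against 7950 and 7186 CPM in WT mitotic libraries. The 4 mutant libraries all lay below both WT libraries, and means were 4595 ± 364, 4505 ± 69.2 and 7568 ± 540 CPM (SD, n = 2 each) in S38A, S38D and WT. With 2 libraries a group, both mutant libraries lay below both WT ones for 28.5% of all genes tested in S38A and 26.5% in S38D. Separations of single genes in mitotic cells named below stand beside these shares. Of the 20 enzymes, 15 were lower in S38A and 14 in S38D, with medians of -0.83 and -0.86. Tm7sf2 is 1 of these in each line, and its pass through the filter depended on groups where it is high. Over all 31 genes, 1 was higher and 18 were lower in S38A mitotic cells, where 8.31% of all genes tested were called higher and 8.72% lower. DESeq2 called 0 higher and 15 lower in S38A, limma-voom 0 higher and 17 lower, and 1 was higher and 21 lower at an unadjusted p under 0.05. In S38D mitotic cells, 0 of the 31 were called higher and 15 were lower, where 1.15% of all genes tested were called higher and 3.41% lower. At an unadjusted p under 0.05, 0 of the 31 were higher and 19 lower in S38D mitotic cells, and DESeq2 and limma-voom called 0 higher and 13 and 14 lower. Both contrasts use the same WT mitotic libraries.

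Of the early enzymes, Acat2, Hmgcs1, Mvk, Pmvk and Mvd were lower in both lines. Hmgcs1, whose product condenses acetoacetyl-CoA and acetyl-CoA to HMG-CoA, had 661 and 590 CPM in S38A and 425 and 404 CPM in S38D mitotic libraries, against 906 and 797 CPM in WT mitotic libraries. Its log2 change was -0.45 ± 0.10 (adjusted p = 0.00714) in S38A and -1.04 ± 0.10 (adjusted p = 1.5e-05) in S38D, and no mutant library reached a WT one. Acat2, the cytosolic thiolase that opens the pathway, had 178 and 136 CPM in S38A and 149 and 136 CPM in S38D, against 338 and 286 CPM in WT mitotic libraries. Mevalonate is then phosphorylated by the kinases of Mvk and Pmvk and decarboxylated by the product of Mvd, and all 3 genes were lower in both lines. Mvd had 599 and 488 CPM in S38A and 387 and 385 CPM in S38D, against 1139 and 933 CPM in WT mitotic libraries, and its log2 changes were -0.93 ± 0.20 and -1.43 ± 0.20. Mvk changed by -1.02 in S38A and -1.32 in S38D, and Pmvk by -0.76 and -0.95. Idi1, the isomerase of isopentenyl diphosphate, had 2 to 12 reads in any library and gave no call between mitotic groups, where a difference was not detectable at this depth.

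Among the prenyl and squalene steps, Fdps and Fdft1 were lower in both lines and Sqle in S38A. Fdps, which makes farnesyl diphosphate, changed by -0.47 in S38A and -0.80 in S38D, both called. It shares 1124 exonic bases with Gm43738 on the same strand, a gene with 1 read over the 12 libraries. Ggps1, which extends farnesyl to geranylgeranyl diphosphate and so feeds protein prenylation, was called in neither line, at -0.25 ± 0.18 and 0.22 ± 0.18. Fdft1, squalene synthase and the first step committed to sterols, had 112 and 87.0 CPM in S38A and 76.6 and 82.1 CPM in S38D, against 236 and 225 CPM in WT mitotic libraries. Every mutant library lay below both WT libraries, and the log2 changes were -1.21 ± 0.14 (adjusted p = 3.58e-05) and -1.54 ± 0.15 (adjusted p = 8.55e-06). Fdft1 lies on chromosome 14 (63145150 to 63179578, minus strand, GRCm38) and shares 774 exonic bases with Ctsb on the opposite strand, and whether reads were counted by strand is not given in the sources used here. Ctsb itself was not called against WT in mitotic cells, at -0.08 ± 0.15 in S38A and 0.10 ± 0.15 in S38D. Between states it was called higher in mitotic cells, at 0.51 in S38A, 0.47 in S38D and 0.59 in WT. Sqle, squalene epoxidase, had 131 and 133 CPM in S38A and 181 and 187 CPM in S38D, against 278 and 217 CPM in WT mitotic libraries. Its groups do not overlap in either contrast, but only S38A gave a call, at -0.91 ± 0.12, while S38D reached -0.43 ± 0.12 (adjusted p = 0.0552).

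From lanosterol onwards, Lss, Cyp51, Msmo1, Hsd17b7 and Dhcr7 were lower in both lines and Ebp did not pass the test. Lss, which closes squalene epoxide into lanosterol, changed by -0.70 in S38A and -1.03 in S38D. It had 33.3 and 30.3 CPM in S38A and 28.8 and 22.1 CPM in S38D, against 42.3 and 61.4 CPM in WT mitotic libraries. Its call in S38A was lost with DESeq2, limma-voom, spike-in scaling or only the groups compared. In S38D the Lss call was lost with spike-in scaling or only the groups compared. Cyp51, the lanosterol demethylase, had 778 and 639 CPM in S38A and 832 and 803 CPM in S38D, against 1526 and 1325 CPM in WT mitotic libraries. Msmo1, the C4 methyl oxidase, had 523 and 467 CPM in S38A and 618 and 615 CPM in S38D, against 1071 and 990 CPM in WT mitotic libraries. Both genes were separated between mutant and WT libraries, with changes of -1.01 and -0.80 for Cyp51 and -1.06 and -0.74 for Msmo1. Nsdhl and Hsd17b7 work beside MSMO1 at the C4 position. Hsd17b7 was lower in both lines, at -1.05 and -0.85, whereas Nsdhl was called only in S38D, at -0.97 ± 0.11, and reached -0.30 ± 0.11 (adjusted p = 0.0707) in S38A. Dhcr7, which reduces 7-dehydrocholesterol to cholesterol, had 33.6 and 30.1 CPM in S38A and 38.7 and 33.3 CPM in S38D, against 63.5 and 68.5 CPM in WT mitotic libraries. Sc5d, the desaturase before it, was called only in S38A, at -0.53, and Ebp, the sterol isomerase, in neither line, at -0.03 ± 0.12 and -0.23 ± 0.12.

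Of the C14 sterol reductases, Tm7sf2 was lower in both lines and Lbr was not called. Lbr, an inner nuclear membrane protein with sterol reductase activity, was not called in either mitotic contrast, with 704 and 735 CPM in S38A and 842 and 828 CPM in S38D, against 824 and 763 CPM in WT mitotic libraries. Tm7sf2, the endoplasmic reticulum enzyme for the same reaction, had 2 and 2 reads in S38A mitotic and 4 and 1 in S38A asynchronous libraries. WT libraries held 50 and 47 reads in mitotic and 52 and 33 reads in asynchronous cells. The low level was found in the S38A libraries of both states, with a counting interval (95%) for the log2 ratio of -6.69 to -3.38 in mitotic and -6.24 to -3.30 in asynchronous cells. S38D libraries lay between, at 4.74 and 1.63 CPM in mitotic and 6.05 and 5.83 CPM in asynchronous cells, against 9.45 and 10.3 CPM in WT mitotic and 10.2 and 9.35 CPM in WT asynchronous cells. Tm7sf2 was called lower in S38A in both states (-4.70 and -4.50), in S38D only in mitotic cells (-1.66 ± 0.38), and higher in S38D than in S38A in both (3.04 and 3.78). It passed the filter only through S38D asynchronous and both WT groups, where it is high. Its calls and intervals are therefore a description and not support. Tm7sf2 lies on chromosome 19 (6062821 to 6068373, minus strand, GRCm38) and shares 532 exonic bases with Vps51 on the same strand, so reads there could be counted for either gene. Vps51 was not called in S38A against WT, at 0.04 ± 0.12 in mitotic and -0.10 ± 0.12 in asynchronous cells. In S38D it was called higher than in WT (0.53 and 0.49) and than in S38A (0.49 and 0.59) in mitotic and asynchronous cells, so the S38D differences of Tm7sf2 stand beside called differences of the gene that shares its bases.

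**Figure D2:**
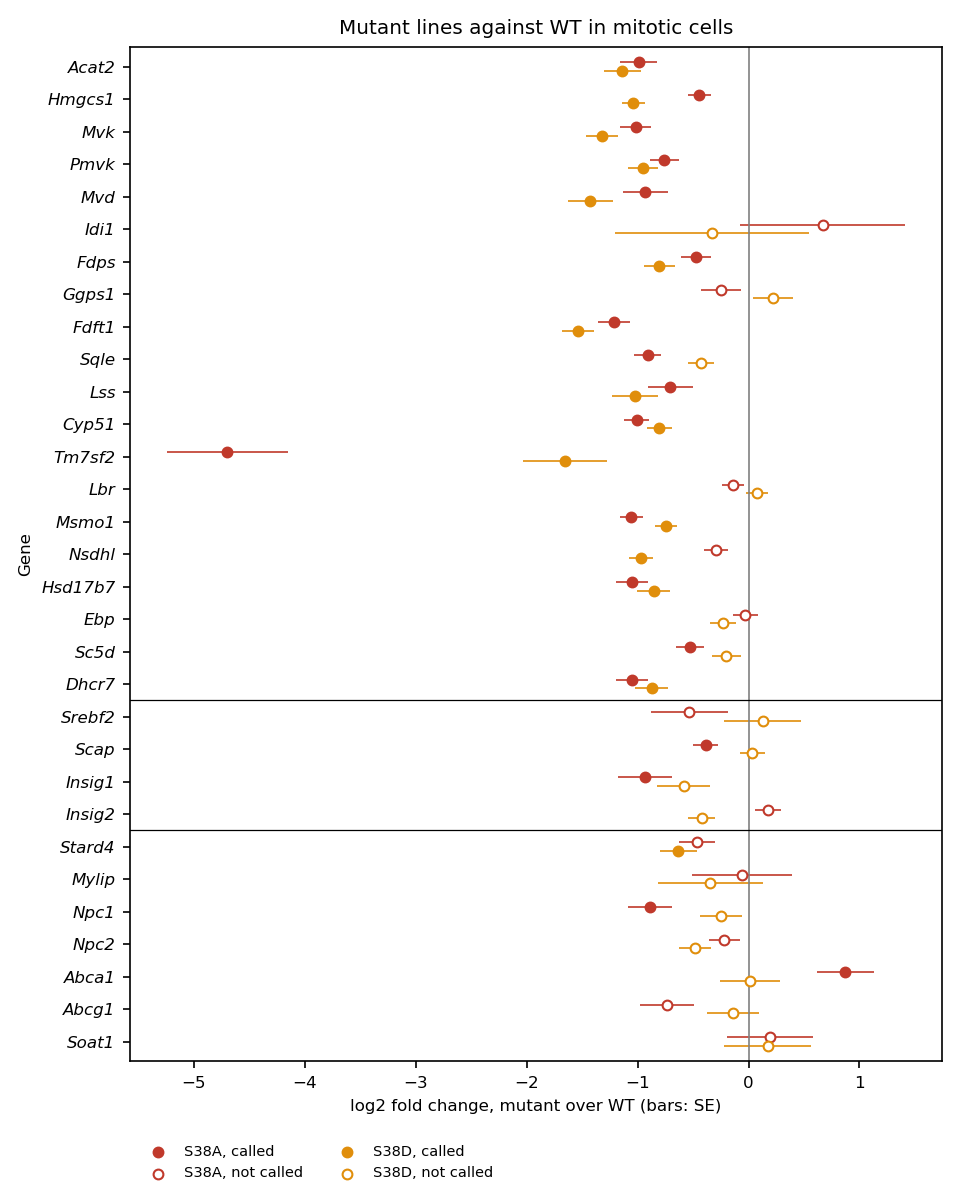
Log2 fold change of S38A (red) and S38D (orange) over WT in mitotic cells for each gene, with the SE of the fit as bars; filled points passed an adjusted p under 0.05 and open points did not. Lines divide synthesis enzymes, SREBP2 regulators and sterol transport genes, and the filled enzymes, 15 in S38A and 14 in S38D, all lie left of 0.

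With the ERCC spike-in RNA as the scale in place of the TMM factors, 13 of the 31 were lower in S38A and 13 in S38D, and the median of all genes stood at 0.03 and -0.05. The calls lost were those of Hmgcs1, Lss, Sc5d, Scap, Insig1 and Abca1 in S38A and of Lss and Stard4 in S38D. Without S38A mitotic replicate 2, 11 of the 31 were called in S38A against WT. Leaving out any 1 library kept 10 of the 19 calls in S38A and 9 of the 15 in S38D in every case, among them Acat2, Mvk, Pmvk, Fdft1, Cyp51 and Msmo1 in both.

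Promoters were read for the motifs through which SREBP2 and its partner NF-Y are known to bind. The RefSeq table (GRCm38.p6, 250 bases before to 50 after the start) held 25 of the 31 genes. The sterol element searched, TCACNCCAC on either strand, was present only in Hmgcs1 among these 25 genes, against 1.36% of the 8112 tested genes in the table. The CCAAT box bound by NF-Y was present in 22 of the 25 (88%), against 43.4% of tested genes in the table. The Sp1 box GGGCGG was present in 23 (92%), against 71.3%, and the E-box CACGTG in 6 (24%), against 12.5%. A match is a description of the letters in this window, and a window without it says only that these letters are not there. The following 5 promoters belong to enzymes whose mitotic change was called lower in both mutant lines, and they were picked after those values were seen. They were chosen for a CCAAT box in the first window listed for the gene. Of the other enzymes called lower in both, Acat2 has no CCAAT box in the table, Dhcr7 has CCAAT boxes in another of its windows, and Fdft1 is not matched. Capitals mark CCAAT boxes, read as ATTGG when on the other strand, and in Hmgcs1 also the sterol element, which does not overlap a CCAAT box. Each runs 5′ to 3′ along the gene, and the position is that of the window.
Hmgcs1 (chr13:119690101-119690400, plus strand): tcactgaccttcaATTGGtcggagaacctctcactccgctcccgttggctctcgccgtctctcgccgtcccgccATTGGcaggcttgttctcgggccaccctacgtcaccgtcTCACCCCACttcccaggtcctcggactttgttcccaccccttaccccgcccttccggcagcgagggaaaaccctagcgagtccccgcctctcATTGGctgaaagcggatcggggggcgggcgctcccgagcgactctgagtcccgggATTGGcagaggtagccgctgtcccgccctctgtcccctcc
Mvk (chr5:114444019-114444318, plus strand): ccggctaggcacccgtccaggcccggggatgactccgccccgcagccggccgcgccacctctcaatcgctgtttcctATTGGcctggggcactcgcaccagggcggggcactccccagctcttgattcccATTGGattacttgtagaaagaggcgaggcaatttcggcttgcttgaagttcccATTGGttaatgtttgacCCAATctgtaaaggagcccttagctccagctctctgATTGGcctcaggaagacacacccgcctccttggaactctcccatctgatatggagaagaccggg
Pmvk (chr3:89454291-89454590, plus strand): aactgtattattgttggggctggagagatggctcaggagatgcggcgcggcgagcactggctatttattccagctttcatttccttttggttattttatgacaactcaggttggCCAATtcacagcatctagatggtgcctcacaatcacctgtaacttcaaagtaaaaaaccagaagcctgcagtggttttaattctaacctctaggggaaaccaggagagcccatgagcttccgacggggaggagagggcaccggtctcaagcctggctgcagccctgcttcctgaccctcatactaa
Cyp51 (chr5:4104648-4104947, minus strand): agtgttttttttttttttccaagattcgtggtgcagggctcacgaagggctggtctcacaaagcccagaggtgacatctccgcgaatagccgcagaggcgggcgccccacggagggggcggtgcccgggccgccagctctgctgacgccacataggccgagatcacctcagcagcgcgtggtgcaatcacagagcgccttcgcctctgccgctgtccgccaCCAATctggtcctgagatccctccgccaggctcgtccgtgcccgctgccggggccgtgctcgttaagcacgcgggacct
Msmo1 (chr8:64733529-64733828, minus strand): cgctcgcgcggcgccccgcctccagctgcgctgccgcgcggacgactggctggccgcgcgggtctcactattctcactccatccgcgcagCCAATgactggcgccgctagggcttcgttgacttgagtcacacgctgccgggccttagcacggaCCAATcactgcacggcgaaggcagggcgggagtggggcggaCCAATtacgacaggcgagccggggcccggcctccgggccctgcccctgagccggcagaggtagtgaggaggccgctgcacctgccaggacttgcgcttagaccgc
Hmgcs1 has 4 CCAAT boxes in its window, Mvk has 5 and Msmo1 has 3, while Pmvk and Cyp51 have 1 each. These genes were picked by their mitotic change, so their lower levels in mutant mitotic libraries are no result about the motifs.

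Mitotic cells were compared with asynchronous cells within each line, a contrast that includes the nocodazole treatment and release. The called enzymes were nearly all lower in mitotic cells of the mutant lines and mostly higher in those of WT on the TMM scale, and the direction in WT depended on the scale, as given with its values. Summed over the 20 enzymes, S38A had 4852 and 4338 CPM in mitotic against 6755 and 6701 CPM in asynchronous libraries. S38D had 4554 and 4456 CPM in mitotic against 6164 and 5386 CPM in asynchronous libraries. WT had 7950 and 7186 CPM in mitotic against 5465 and 5490 CPM in asynchronous libraries. The mitotic libraries lay below the asynchronous ones in both mutant lines and above them in WT. Of all genes tested, 30.8% lay wholly below in S38A, 30.7% below in S38D and 32.1% above in WT.

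In the S38A line, 1 of the 31 was higher and 11 were lower in mitotic cells, where 6.72% of all genes tested were called higher and 8.06% lower, and the median over the 31 was -0.42. Fdft1 fell by 0.84, Nsdhl by 0.86 and Mvd by 0.97 on the log2 scale. Scap was the gene called higher, at 0.42 ± 0.11. The lower calls were Acat2, Hmgcs1, Mvk, Pmvk, Mvd, Fdps, Fdft1, Sqle, Cyp51, Msmo1 and Nsdhl, which are all enzymes. Without S38A mitotic replicate 2 the count was 5, all lower.

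In the S38D line, 2 were higher and 8 were lower, where 11.6% of all genes tested were called higher and 14.8% lower, and the median was -0.17. Nsdhl had 55.8 and 58.9 CPM in mitotic against 129 and 133 CPM in asynchronous libraries, a change of -1.19 ± 0.11 (adjusted p = 1.5e-06). Hmgcs1 had 425 and 404 CPM in mitotic against 736 and 717 CPM in asynchronous libraries, a change of -0.81 ± 0.10. The other lower calls were Acat2, Mvk, Pmvk, Mvd, Fdps and Fdft1. Scap (0.69) and Ebp (0.35) were called higher. The Ebp call was lost with DESeq2, spike-in scaling, no filter or only the groups compared, and the Scap call was kept with each. With only the groups compared, the lower calls of Acat2, Pmvk and Mvd were lost as well. The group holds S38D asynchronous replicate 1, whose Mvd, Acat2 and Pmvk levels were 851, 264 and 479 CPM beside 526, 182 and 340 CPM in its partner.

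In the WT line, 13 were higher and 3 were lower, where 13.4% of all genes tested were called higher and 12.7% lower, and the median was 0.28. Dhcr7 had 63.5 and 68.5 CPM in mitotic against 30.1 and 32.0 CPM in asynchronous libraries, a change of 1.09 ± 0.15 (adjusted p = 0.000122). Fdft1 (0.73), Msmo1 (0.73), Cyp51 (0.63) and Acat2 (0.77) were also higher, and Scap, the SREBP escort, was higher at 0.81 ± 0.12. Ctsb, which shares exonic bases with Fdft1, was called higher as well (0.59). The enzymes Hmgcs1, Pmvk, Lbr, Hsd17b7, Ebp and Sc5d and the regulator Insig2 gave the other higher calls, at 0.29 to 0.47, of which Hmgcs1, Pmvk, Lbr, Sc5d and Insig2 lay below 0 with spike-in scaling. Nsdhl (-0.35), Idi1 (-1.95) and Abca1 (-1.47) were lower, Idi1 with 6 reads in mitotic against 21 in asynchronous libraries and having passed the filter only through the asynchronous ones. With DESeq2 the calls of Nsdhl, Idi1, Pmvk, Hsd17b7, Sc5d and Insig2 were lost, and with limma-voom those of Pmvk and Sc5d. With ERCC scaling the median of all genes stood at -0.46, against -0.02 with TMM factors, and 1 of the 31 was higher (Dhcr7, 0.65) and 7 were lower, with a median of -0.16 over the 31. Spike-in reads were 3.30% and 3.31% of gene reads in WT mitotic against 2.71% and 2.29% in WT asynchronous libraries. The count of calls in WT was 6 without WT asynchronous replicate 1, 8 without WT asynchronous replicate 2 and 9 without WT mitotic replicate 1.

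**Figure D3:**
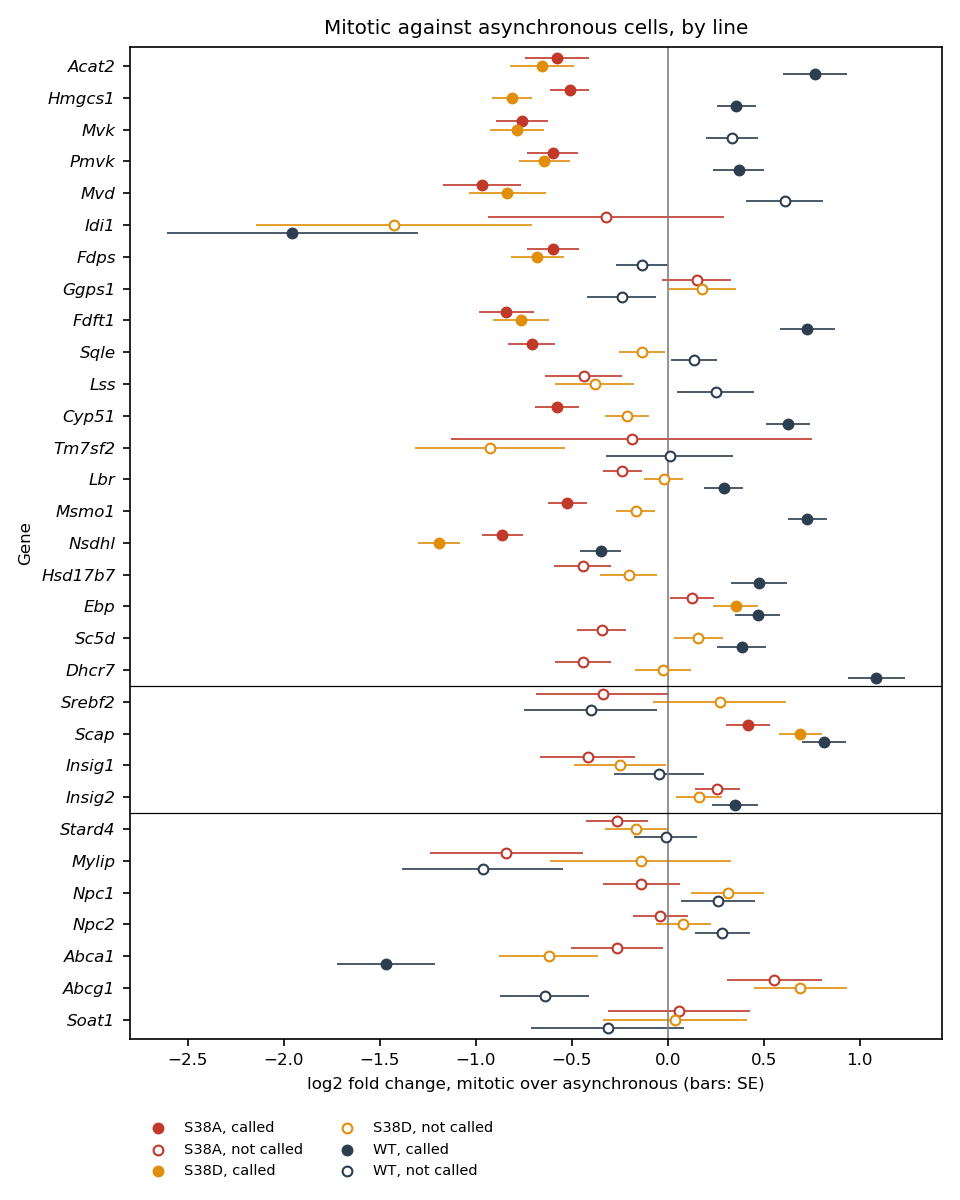
Log2 fold change of mitotic over asynchronous cells for each gene in the S38A, S38D and WT lines, with the SE of the fit as bars; filled points passed an adjusted p under 0.05. On this TMM scale Acat2, Mvd and Fdft1 lie below 0 in both mutant lines and above 0 in WT, where the spike-in scale gives 0.32, 0.16 and 0.28.

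Whether the mitotic change differed between a mutant line and WT was tested as the difference of the changes. For S38A minus WT, 0 of the 31 differences were called higher and 11 were called lower, where 0.496% of all genes tested were called higher and 0.496% lower. Fdft1 gave -1.57 ± 0.20 (adjusted p = 0.00207), Msmo1 -1.25 ± 0.14, Cyp51 -1.20 ± 0.16 and Dhcr7 -1.53 ± 0.21. These 4 kept their call whichever single library was left out. Mvd (-1.58), Acat2 (-1.34), Mvk (-1.09), Pmvk (-0.97), Hsd17b7 (-0.92), Hmgcs1 (-0.87) and Sqle (-0.84) were called with all 12 libraries. Part of the Mvd difference lay in asynchronous cells, where S38A stood at 0.64 against WT, beside -0.93 in mitotic cells. At an unadjusted p under 0.05, 2 were higher and 17 lower in this contrast, DESeq2 called 0 higher and 11 lower, and limma-voom called 0 higher and 7 lower. On the spike-in scale the median of all genes in this contrast stood at 0.46, and 6 enzymes remained lower (Acat2, Mvd, Fdft1, Cyp51, Msmo1 and Dhcr7) while Abca1 was called higher, at 1.64.

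For S38D minus WT, 0 were called higher and 9 were called lower, where 0.143% of all genes tested were called higher and 0.258% lower. Fdft1 gave -1.49 ± 0.20 (adjusted p = 0.00926) and Hmgcs1 -1.17 ± 0.15 (adjusted p = 0.00638). Acat2 (-1.42), Mvk (-1.12), Dhcr7 (-1.11), Pmvk (-1.01), Msmo1 (-0.90), Nsdhl (-0.84) and Cyp51 (-0.84) were the others. At an unadjusted p under 0.05, 2 were higher and 14 lower, DESeq2 called 1 higher and 10 lower, and limma-voom called 0 higher and 1 lower. With spike-in scaling, or with only the groups compared in the fit, 0 of the 31 passed. Leaving out WT asynchronous replicate 1 or 2, or S38D mitotic replicate 1 or 2, also gave 0, S38A asynchronous replicate 1 or 2 or WT mitotic replicate 1 gave 2, and WT mitotic replicate 2 gave 5. Without S38D asynchronous replicate 2 the count was 16, of which 2 were higher. For S38A minus WT the count was 17 without S38D asynchronous replicate 1 and 18 without S38D asynchronous replicate 2. It was 4 without any 1 of the WT asynchronous or S38A asynchronous libraries, WT mitotic replicate 1 or S38A mitotic replicate 2, and 6 or 7 without S38A mitotic replicate 1 or an S38D mitotic library. Both contrasts use the same WT mitotic and WT asynchronous libraries.

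**Figure D4:**
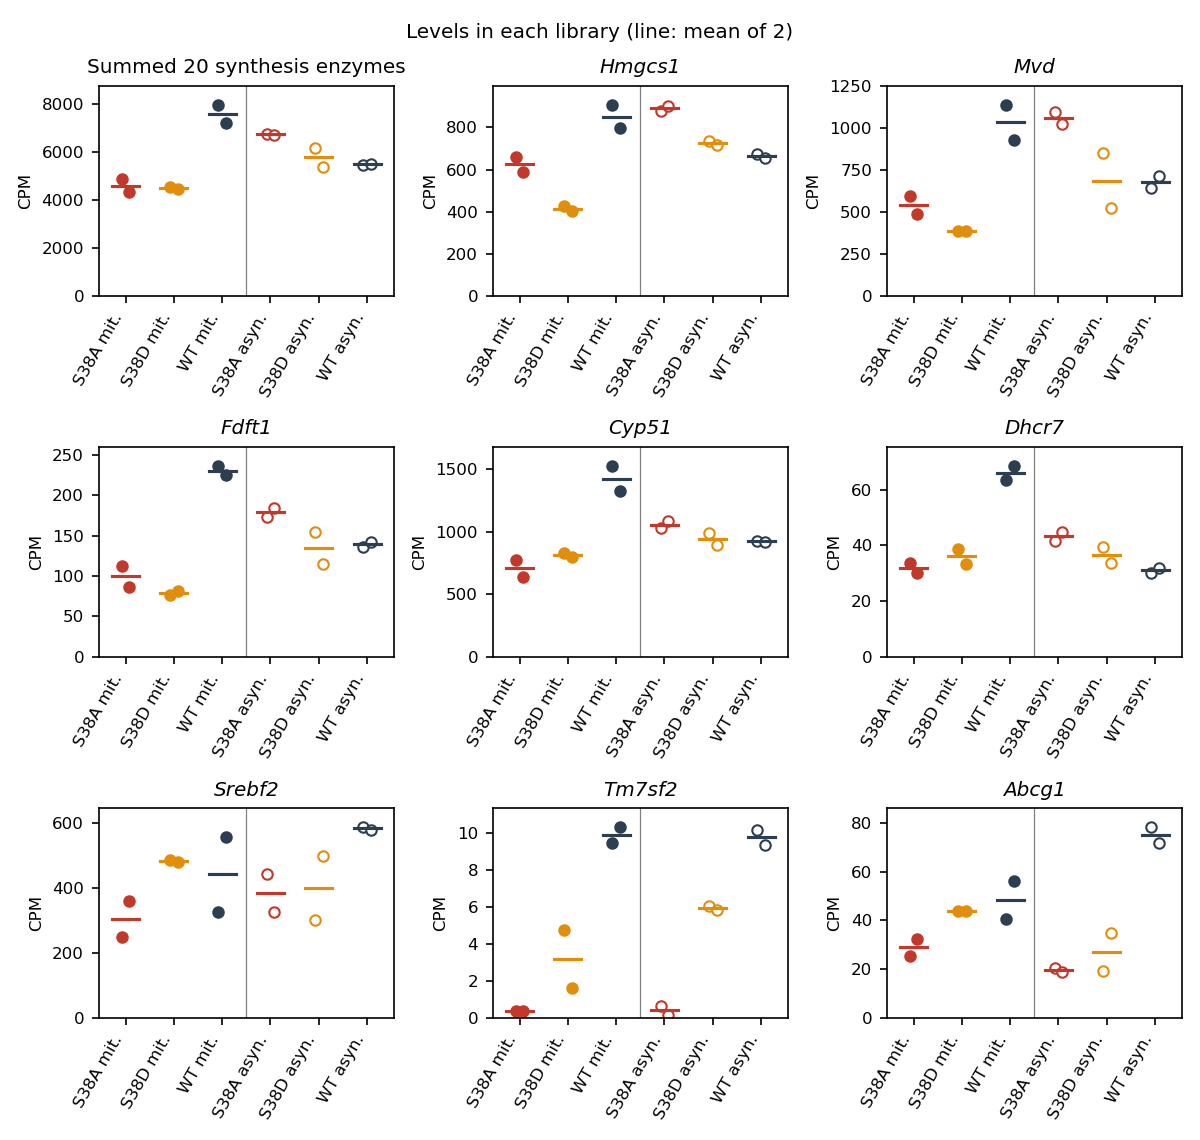
CPM in each library (points) and the mean of the 2 libraries (lines) for the summed 20 enzymes and 8 genes; filled points are mitotic and open points asynchronous, and S38A and S38D stand left of WT within each state. For the summed enzymes, the S38A and S38D mitotic libraries lie at 4338 to 4852 CPM and the WT mitotic libraries at 7186 and 7950 CPM.

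In asynchronous cells the share of the 31 genes called in S38A against WT was near that of all genes. In S38A, 4 were higher and 3 were lower, where 11.7% of all genes tested were called higher and 9.54% lower, and the median was 0.01. The higher genes were Hmgcs1 (0.42), Mvd (0.64), Lbr (0.39) and Dhcr7 (0.48), of which Hmgcs1 and Lbr stood at -0.03 and -0.08 with spike-in scaling. The lower ones were Tm7sf2, Ggps1 (-0.64) and Abcg1, of which Tm7sf2 passed the filter through WT and S38D groups only. On the TMM scale, the 20 enzymes alone had a median of 0.20 in S38A, with 13 above 0 and 7 below. Their summed level was 6755 and 6701 CPM in S38A against 5465 and 5490 CPM in WT asynchronous libraries. Both S38A libraries lay above both WT ones for 12 enzymes and below for 4, beside 33.9% and 34.8% of all genes tested. In S38D, 1 of the 31 was higher (Lbr, 0.39, or -0.003301 with spike-in scaling) and 2 were lower (Abcg1 and Abca1), where 4.87% of all genes tested were called higher and 4.12% lower, and the median was -0.18. The higher calls depend on the scale: with spike-in scaling, the median of all genes stood at -0.47 in S38A and -0.38 in S38D, and the calls were 11 and 10, all lower. In S38A against WT the count was 2 without WT asynchronous replicate 1 or S38A asynchronous replicate 2, 3 without WT asynchronous replicate 2, and 14 without S38D asynchronous replicate 1 or 2. In S38D against WT it was 1 without WT asynchronous replicate 1 or 2 and 8 without S38D asynchronous replicate 2.

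Lines S38D and S38A were also compared with each other. In asynchronous cells 1 was higher in S38D (Tm7sf2, 3.78) and 2 were lower (Ebp, -0.43, and Insig2, -0.50), where 3.32% of all genes tested were called higher and 3.89% lower. In mitotic cells 5 were higher in S38D and 4 were lower, where 7.51% of all genes tested were called higher and 10.2% lower. The higher genes were Tm7sf2 (3.04), Npc1 (0.64), Sqle (0.48), Scap (0.42) and Msmo1 (0.32). No S38A group carried Tm7sf2 through the filter, which bears on its call in both states. The lower genes were Abca1 (-0.86), Nsdhl (-0.67), Insig2 (-0.60) and Hmgcs1 (-0.59). Hmgcs1 and Nsdhl kept their call in all fits that left out 1 library. The mitotic count was 17 and 16 without S38D asynchronous replicate 1 and 2, 3 without S38A mitotic replicate 1, and 4 without S38A mitotic replicate 2 or either S38D mitotic library. The asynchronous count was 1 without S38A asynchronous replicate 2, and 11 and 5 without S38D asynchronous replicate 1 and 2.

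The RNA of SREBP2 itself gave no call in any of the 11 comparisons. Srebf2 had 249 and 359 CPM in S38A, 483 and 478 CPM in S38D and 325 and 556 CPM in WT mitotic libraries. In asynchronous libraries it had 442 and 327 CPM in S38A, 301 and 496 CPM in S38D and 586 and 578 CPM in WT. Both WT asynchronous libraries lay above the 4 mutant asynchronous ones. In these cells 34.8% of all genes tested lay wholly below WT in S38A and 25.2% in S38D. Replicates differed widely in 4 groups and little in S38D mitotic and WT asynchronous cells, and the SE of its contrasts between lines was 0.35. These are the 4 groups whose replicates shared a deviation over many genes, as given below with the correlations. The lack of a call for Srebf2 therefore does not show equal levels. Among its partners, Scap was lower in S38A than in WT mitotic cells, with 84.6 and 81.4 CPM in S38A against 110 and 107 CPM in WT, and at 111 and 111 CPM in S38D it was not called. Insig1, itself a known target of SREBP2, had 6.33 and 7.09 CPM in S38A and 8.03 and 9.06 CPM in S38D, against 13.8 and 11.9 CPM in WT mitotic libraries. Insig1 was called lower in S38A (-0.93 ± 0.24) but not in S38D (-0.58 ± 0.24, adjusted p = 0.199). The Insig1 call was lost in 3 fits that left out 1 library, with DESeq2 and with spike-in scaling. The Scap call in S38A mitotic cells was lost in 5 such fits, with DESeq2, with spike-in scaling and with no filter. Insig2 had 158 and 136 CPM in S38A and 104 and 90.1 CPM in S38D, against 129 and 131 CPM in WT mitotic libraries, and it was called in neither line.

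Sterol transport genes did not move as one group. Abcg1, an exporter raised by LXR, had 20.3 and 19.0 CPM in S38A and 19.3 and 35.0 CPM in S38D, against 78.2 and 71.7 CPM in WT asynchronous libraries. The log2 changes were -1.93 ± 0.24 (adjusted p = 0.000174) and -1.47 ± 0.24 (adjusted p = 0.00255), and no mutant library reached a WT one. In these contrasts 34.8% and 25.2% of all genes tested lay wholly below WT. Abcg1 kept its call in both lines in every fit that left out 1 library, but its call in S38D was lost with only the groups compared in the fit. In mitotic libraries its levels were 25.5 and 32.3 CPM in S38A and 43.7 and 43.7 CPM in S38D, against 40.4 and 56.0 CPM in WT, with no call. Abca1, a second exporter, had 24.0 and 19.0 CPM in S38A and 8.86 and 14.7 CPM in S38D, against 12.9 and 10.5 CPM in WT mitotic libraries. It was higher in S38A mitotic cells (0.87 ± 0.26), a call lost without any 1 of the S38A or WT mitotic libraries (adjusted p up to 0.197) and with DESeq2, limma-voom, no robust estimation or spike-in scaling. Its lower call in S38D asynchronous cells was lost in 7 of the 12 fits that left out 1 library. In WT it was lower in mitotic than asynchronous cells, where it had 36.8 and 27.8 CPM.

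Npc1 and Npc2 act together to release cholesterol from lysosomes, and Npc1 was lower in S38A mitotic cells, at 11.4 and 13.8 CPM against 24.8 and 21.9 CPM in WT mitotic cells (-0.89 ± 0.20). Its level in S38D mitotic cells was 18.3 and 21.02 CPM, with no call. Npc1 shares 511 exonic bases with Rmc1 on the opposite strand. Rmc1 was not called against WT in mitotic cells, at 0.80 ± 0.62 in S38A and 0.88 ± 0.62 in S38D. Npc2 was not called in any comparison, with mitotic changes against WT of -0.22 in S38A and -0.49 in S38D. Stard4, a soluble sterol carrier, was called lower only in S38D mitotic cells, at -0.63 ± 0.16, with 54.2 and 46.8 CPM against 71.0 and 85.4 CPM in WT mitotic cells. That call was lost in 8 of the 12 fits that left out 1 library (adjusted p up to 0.302) and with DESeq2, limma-voom, no robust estimation, spike-in scaling or only the groups compared. Mylip, the ubiquitin ligase that LXR raises to degrade lipoprotein receptors, and Soat1, which esterifies cholesterol for storage, were called nowhere, at 1.44 to 5.48 CPM and 2.83 to 5.42 CPM in all 12 libraries.

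Fatty acid synthesis, the neighbouring pathway driven mainly by SREBP1, was followed through 18 genes. In mitotic cells 10 of the 18 were lower in S38A and 11 in S38D, and 0 were called higher in either, with medians of -0.53 and -0.56, where 8.31% and 1.15% of all genes tested were called higher and 8.72% and 3.41% lower. At an unadjusted p under 0.05, 0 were higher in both contrasts and 14 and 11 were lower, and DESeq2 and limma-voom also called 0 higher. Scd2, a stearoyl-CoA desaturase, had 723 and 680 CPM in S38A and 1016 and 1042 CPM in S38D, against 1736 and 1643 CPM in WT mitotic libraries. Fasn, fatty acid synthase, had 480 and 450 CPM in S38A and 426 and 457 CPM in S38D, against 902 and 757 CPM in WT mitotic libraries. Both genes were separated between the mutant and the WT libraries. Among genes with the smallest adjusted p, Fads2, a fatty acid desaturase, changed by -1.45 in S38A and -1.88 in S38D, and Me1, which supplies NADPH, by -0.77 and -0.69. Fads1 changed by -1.09 in S38A. In S38D, Lpin1 changed by -1.16 and Scd1 by -0.67. The count was 6 in S38A without WT mitotic replicate 1 or S38A mitotic replicate 2, and 6 in S38D without either S38D mitotic library.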

How the data were processed

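Per the labels' protocols, RNA was isolated from clarified lysates in polysome buffer, mixed with ERCC spike-in RNA and made into 3′ mRNA libraries (QuantSeq FWD). The deposited files hold raw counts, whole reads per gene and spike-in, 1 file per library, which the authors did not normalize. Per the submitters' processing notes, the tools were STAR 2.5.3a, cutadapt 1.12 and bcl2fastq 2.16.0.10, and the build was mm10. Not given in the sources used here are the counting program, its annotation and its handling of strand and of reads with several matches. Beside the overlaps described above, Hmgcs1, Idi1, Ggps1, Lss, Cyp51, Lbr and Scap also share exonic bases with another gene.

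Gene symbols came from GENCODE M21 (GRCm38), which matched 51633 of 51826 identifiers (99.63%) when versions were ignored. Genes were filtered with filterByExpr by group (minimum count 10), given TMM factors, and then modelled in edgeR 4.0.16 under R 4.3.3 with 1 mean per group over 12 libraries and no other term, which left 6 residual degrees of freedom. Robust quasi-likelihood tests were adjusted by Benjamini-Hochberg over 10477 genes within each of 11 comparisons, and the SE is the change divided by the root of F. The fit was also tested on simulated counts, with gene levels and 1 spread shared by all genes taken from the fit to these data. Alternatives were DESeq2 1.42.0, limma-voom 3.58.1, DESeq2 size factors, spike-in scaling, no filter, a filter at 10 CPM in 2 libraries, no robust estimation, only the groups compared, a replicate block, and libraries left out. Counting intervals hold counting error alone, because amplified reads are not separate molecules. Promoters came from the RefSeq table (GRCm38.p6).

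All 31 members are described. Genes of other lists are named only when called, at most 4 by the smallest adjusted p per list and comparison, save where said otherwise. For fatty acid synthesis more than 4 are named per comparison. The members and lists were chosen with earlier results of these data known.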

Additional observations from a re-analysis of the deposited data

Results flagged for a closer look

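The mitotic change differed between a mutant line and WT, by the test of the difference itself, for the following enzymes. The values are differences of log2 changes.

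In S38A minus WT, the early enzymes gave -1.34 for Acat2, -0.87 for Hmgcs1, -1.09 for Mvk, -0.97 for Pmvk and -1.58 for Mvd. Squalene synthase Fdft1 gave -1.57 and Sqle -0.84. The late enzymes gave -1.20 for Cyp51, -1.25 for Msmo1, -0.92 for Hsd17b7 and -1.53 for Dhcr7.

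In S38D minus WT, the early enzymes gave -1.42 for Acat2, -1.17 for Hmgcs1, -1.12 for Mvk and -1.01 for Pmvk. Fdft1 gave -1.49. The late enzymes gave -0.84 for Cyp51, -0.90 for Msmo1, -0.84 for Nsdhl and -1.11 for Dhcr7. None of these 9 calls was kept in all 12 fits that left out 1 library, and 0 passed with spike-in scaling or with only the groups compared. Of the 11 calls in S38A minus WT, 4 were kept in all 12 such fits and 6 with spike-in scaling. Both contrasts share the WT libraries, and groups of 2 libraries allow no test for a single library that stands apart.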

How the results depend on the processing

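Over 7461 values of single genes under the alternatives, 6749 kept their direction and their side of the threshold, 428 lost a call, 274 gained one and 10 changed sign. Counts of called members, given as higher plus lower, moved as follows. With spike-in scaling they were 8 for mitotic against asynchronous WT cells, 11 and 10 for S38A and S38D against WT in asynchronous cells, 1 for S38D against S38A in asynchronous cells, and 7 and 0 for the mitotic change in S38A and S38D minus WT. With only the groups compared they were 6 for mitotic S38D, 16 and 0 for S38A and S38D against WT in asynchronous cells, 1 and 17 for S38D against S38A in asynchronous and mitotic cells, and 0 for the mitotic change in S38D minus WT. Without S38D asynchronous replicate 1 and WT mitotic replicate 1 together they were 16 and 5 for S38A and S38D against WT in asynchronous cells, 13 and 17 for S38D against S38A in asynchronous and mitotic cells, and 17 for the mitotic change in S38A minus WT. Without the filter, S38D against S38A in asynchronous cells gave 6. The mitotic change in S38A and S38D minus WT gave 7 and 1 with limma-voom, and 7 and 1 without robust estimation. Of the lists in mitotic cells, SREBP processing gave 6 in S38A without both libraries, and 1 in S38D with DESeq2, limma-voom, spike-in scaling, no robust estimation or only the groups compared. The isoprenoid list in S38A gave 2 with the filter at 10 CPM, 2 with only the groups compared and 4 without both libraries.

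The sign changed with spike-in scaling for Hmgcs1 (-0.085), Pmvk (-0.07523), Lbr (-0.16), Sc5d (-0.0501) and Insig2 (-0.092) in mitotic against asynchronous WT cells, for Hmgcs1 (-0.032), Lbr (-0.07501) and Scap (-0.44) in S38A against WT asynchronous cells, and for Lbr (-0.003301) in S38D against WT asynchronous cells. Mvd turned to -0.36 in S38D against WT asynchronous cells without both libraries. The cause was not tested.

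Leaving out each library in turn gave 5 to 17, 8 to 12 and 6 to 20 called members for mitotic against asynchronous cells in S38A, S38D and WT. It gave 2 to 14 and 1 to 8 for S38A and S38D against WT in asynchronous cells, 11 to 22 and 10 to 18 in mitotic cells, 1 to 11 and 3 to 17 for S38D against S38A in asynchronous and mitotic cells, and 4 to 18 and 0 to 16 for the mitotic change in S38A and S38D minus WT. For the lists in S38A and S38D against WT mitotic cells it gave 3 to 6 and 1 to 3 for SREBP processing, 0 to 3 and 0 to 1 for isoprenoid branches, 6 to 13 and 6 to 11 for fatty acid synthesis, 2 to 5 and 2 to 2 for oxysterol and lipid transfer, and 1 to 3 and 0 to 1 for LXR.

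Replicate numbers did not pair the libraries: of 15 correlations between groups of the deviations over 5516 genes, 3 exceeded 0.1 and 3 lay under -0.1. The positive ones were 0.83, 0.649 and 0.611, among S38D asynchronous, WT mitotic and S38A mitotic cells, and the negative ones, -0.415 to -0.452, joined S38A asynchronous cells to those 3 groups, so a deviation was shared by 4 of the 6 groups. With the replicate block, the called members in the order of the preceding paragraph were 12, 11 and 18, then 7 and 3, 20 and 17, 4 and 9, and 11 and 11.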

Other observations

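The counts of other lists in S38A and S38D against WT mitotic cells stand beside 8.31% and 1.15% of all genes tested called higher and 8.72% and 3.41% lower. Of 17 genes of SREBP processing and sterol-regulated degradation, 2 were higher and 1 lower in S38A, and 1 was higher and 1 lower in S38D, a share in S38A near that of all genes. Rnf145, a ubiquitin ligase of the endoplasmic reticulum, was lower in both, with 516 and 580 CPM in S38A and 631 and 588 CPM in S38D against 963 and 969 CPM in WT mitotic libraries. Vcp, an ATPase that extracts proteins for degradation, had 350 and 381 CPM in S38A against 189 and 158 CPM in WT mitotic libraries (1.07 ± 0.15). The NF-Y subunit Nfyb was higher in S38A (0.80), and Tmem97 was higher in S38D (0.50).

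Of 16 genes that use farnesyl and geranylgeranyl diphosphate, 1 was higher in S38A (Fntb, 0.80), and S38D gave 0 calls with edgeR, DESeq2 and limma-voom, with 2 higher and 2 lower at an unadjusted p under 0.05. Of 18 genes of oxysterol and lipid transfer, 4 were lower in S38A and 2 in S38D. Stard5, a sterol-binding protein, was lower in both, with 43.8 and 42.2 CPM in S38A and 32.6 and 32.3 CPM in S38D against 91.6 and 100.1 CPM in WT mitotic libraries. Scarb1, Gramd1a and Osbpl2 were the others in S38A (-0.79, -0.53 and -0.70), and Osbpl3 in S38D (-1.44). Of 10 LXR receptors, partners and targets, 1 was higher and 2 lower in S38A, and 1 was lower in S38D. Lpcat3, a phospholipid-remodelling target of LXR, was lower in both (-1.08 and -0.67), Ncoa1 was higher (1.04) and Rxra lower (-0.65) in S38A.

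Srebf1, named here after its values were seen, was called in none of the 11 comparisons. It had 16.9 and 12.9 CPM in S38A and 7.16 and 40.5 CPM in S38D, against 64.1 and 64.3 CPM in WT asynchronous libraries, and the S38D replicates differ widely. Its lowest unadjusted p in any comparison was 0.0348, for S38A against WT asynchronous cells (adjusted p = 0.114).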
